A study of Mus musculus with 18 samples.

Results

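The 6 libraries compared here were made from bone marrow-derived macrophages (BMMs) treated with lipopolysaccharide (LPS), 3 from GILZ TG mice and 3 from WT mice, out of 18 libraries in the series. They were chosen by genotype and treatment alone, and all 12164 genes that passed a filter on low counts were tested between them. LPS is a component of the outer membrane of Gram-negative bacteria that activates macrophages through TLR4, and it was given at 100 ng/ml for 4 h after 6 days of differentiation with 50 ng/ml M-CSF. The mice were female, on a C57BL/6J background by the labels and 10 to 23 weeks old by the study's methods. WT animals were Lyz2-Cre mice. GILZ TG animals carried in addition a Gilz-1 cDNA in the ROSA26 locus behind a loxP-flanked stop, in a strain whose name includes EGFP, so that GILZ is overexpressed in cells in which the Lyz2 promoter drives Cre. GILZ KO libraries after LPS, from mice that lose a floxed exon of the gene through the same Cre, serve for comparison. So do untreated libraries, whose titles share replicate numbers with the LPS libraries but do not state a shared preparation. Nothing in the labels ties a GILZ TG preparation to a WT preparation.

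GILZ (glucocorticoid-induced leucine zipper) is the protein of Tsc22d3, a glucocorticoid-induced gene. It is known to bind the NF-kB and AP-1 transcription factors and is regarded as an anti-inflammatory mediator. In macrophages its mRNA falls upon activation through toll-like receptors, and the transgene is transcribed independently of the gene's own promoter. Macrophages also clear dead cells, through receptors for phosphatidylserine and its bridging proteins such as Tim-4 and Axl, and take up microbes and lipoproteins through scavenger receptors such as MARCO.

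Promoter sequences of 3 genes that differed between GILZ TG and WT are shown because they hold binding letters of the factors GILZ is known to bind. The sequences are from RefSeq (GRCm38.p6), each covering the 250 bases before a transcription start, and capitals mark the motif. Itgax at chr7:128129300-128129549 (plus strand) and Mmp12 at chr9:7347124-7347373 (plus strand, the downstream start of this gene's 2 entries) hold the AP-1 motif TGANTCA, and Marco at chr1:120505025-120505274 (minus strand) holds an NF-kB motif (GGG, any 3 bases, then TTCC).
Itgax: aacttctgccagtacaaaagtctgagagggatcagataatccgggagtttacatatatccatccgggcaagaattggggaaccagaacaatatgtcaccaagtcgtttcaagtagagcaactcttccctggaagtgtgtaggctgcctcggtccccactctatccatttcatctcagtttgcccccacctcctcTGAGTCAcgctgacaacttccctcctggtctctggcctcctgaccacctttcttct
Mmp12: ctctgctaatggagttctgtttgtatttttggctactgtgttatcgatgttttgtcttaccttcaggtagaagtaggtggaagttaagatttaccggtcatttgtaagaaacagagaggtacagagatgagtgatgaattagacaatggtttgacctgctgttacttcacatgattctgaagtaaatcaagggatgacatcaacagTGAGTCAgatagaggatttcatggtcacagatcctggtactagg
Marco: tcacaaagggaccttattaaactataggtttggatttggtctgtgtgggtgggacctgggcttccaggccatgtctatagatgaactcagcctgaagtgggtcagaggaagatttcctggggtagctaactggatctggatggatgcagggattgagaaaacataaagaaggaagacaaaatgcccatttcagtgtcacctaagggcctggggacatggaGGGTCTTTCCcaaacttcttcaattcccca
Searched on both strands, TGANTCA stood in the promoters of 4 of the 32 consistent genes with a promoter entry (Itgax, Mmp12, Psap and Slc24a5), or 12.5%, and in 5.66% of the 9271 tested genes with an entry. This NF-kB motif stood in 3 of 32 (Marco, Kitl and Gm13212), or 9.38%, against 6.27% of all. The interferon-related motif TTCNNNGAA stood in 2 of 32 (Tsc22d3 and Thg1l), or 6.25%, against 7.26%. A gene counted if any of its entries held the motif, and the upstream entry of Mmp12 held no match. A match of these letters is a description of the window, and no binding was measured.

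Expression was measured as the expected count per gene, an estimate of the number of reads, and as TPM, a share of all transcripts that also corrects for transcript length. The LPS libraries of GILZ TG held 20757976 to 38557029 reads on genes and those of WT 22888219 to 26614977. Of the 12 macrophage markers other than Lyz2, 0 were under 1 TPM throughout these libraries, and their summed level was 6258 to 6886 TPM in WT and 6835 to 7554 TPM in GILZ TG. Markers of other cells were not equal between the GILZ TG libraries. The 13 neutrophil-lineage markers summed to 237, 538 and 112 TPM in GILZ TG replicates 1, 2 and 3, and to 50.2 to 105 TPM in WT, with 1 marker at 0 in all WT libraries and none at 0 throughout GILZ TG. The 18 B and plasma cell markers summed to 96.0, 202 and 31.8 TPM, against 20.4 to 23.1 TPM, with 7 markers at 0 in all WT and 2 in all GILZ TG libraries. The 20 stromal fibroblast markers, among them collagens I and III, summed to 234, 321 and 27.9 TPM, against 33.5 to 55.6 TPM. Of the 16 stromal markers tested, all 16 were above every WT library in GILZ TG replicates 1 and 2, and 12 were below every WT library in replicate 3. Replicate 3 therefore stands apart from the other GILZ TG libraries. List counts are therefore also given without this library, and in bulk RNA more cells of a type cannot be told apart from more RNA per cell. Sums for T and NK cells (4.94 to 8.68 TPM), erythroid cells (0 to 0.22 TPM), mast cells and basophils (46.6 to 74.6 TPM) and endothelial cells (10.1 to 14.6 TPM) overlapped between the genotypes. So did the sums for osteoblasts (4694 to 6483 TPM, nearly all Spp1) and megakaryocytes (709 to 1386 TPM, nearly all Pf4), and dendritic cell markers are given with Itgax.

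**Figure D1:**
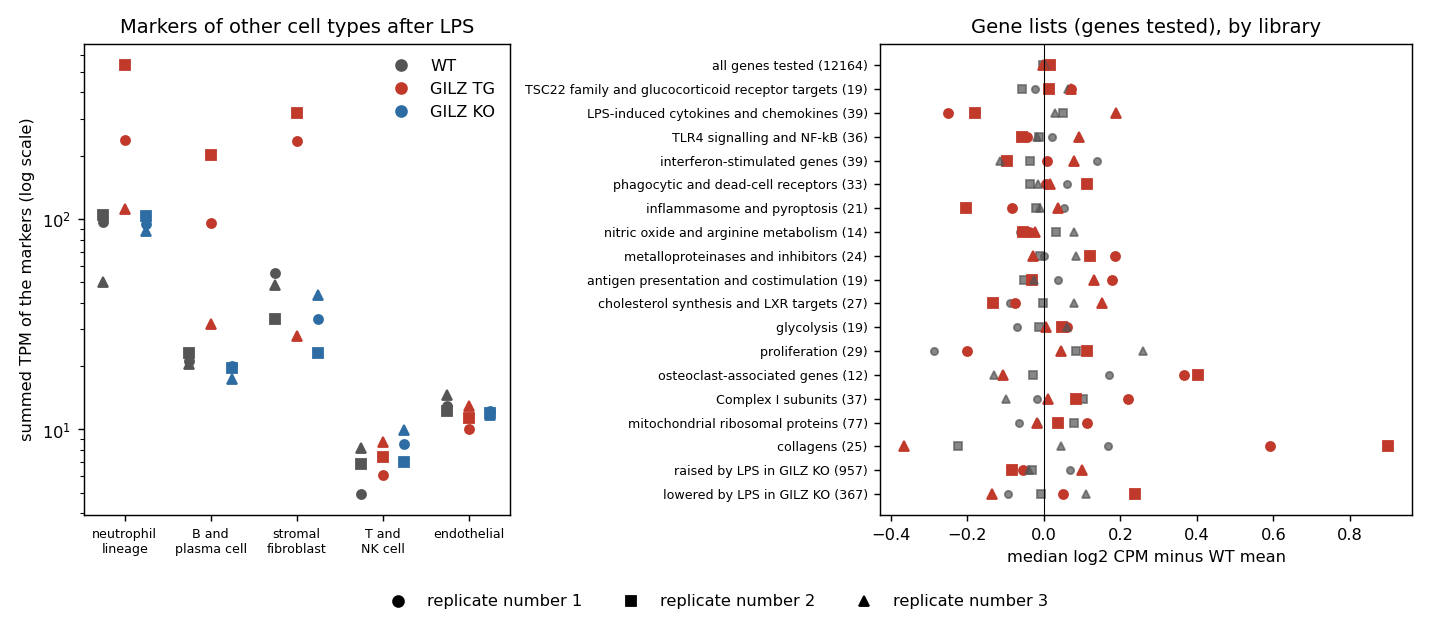
Left, summed TPM (log scale) of marker genes of 5 other cell types in each library after LPS, with stromal, neutrophil and B cell markers highest in GILZ TG replicates 1 and 2. Right, for each gene list and library, the median over the tested genes of log2 CPM minus the WT mean, with GILZ TG in red and WT in grey. Collagens and osteoclast-associated genes show GILZ TG replicates 1 and 2 above WT and replicate 3 at or below 0.

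The engineered genes were examined first. Tsc22d3 stood at 127, 141 and 127 TPM in GILZ TG and at 4.56, 5.81 and 5.09 TPM in WT. The groups were far apart, and the GILZ TG libraries differed from each other by less than from any WT library. The log2 fold change of counts was 4.07 ± 0.11 (SE, edgeR adjusted p = 1.04e-08, n = 3 per group), or 16.8-fold. On log2(TPM + 1) the difference was 4.43, so its size depends on the scale. The GILZ KO libraries had 2.5 to 3.28 TPM.

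Gt(ROSA)26Sor, the noncoding transcript of the ROSA26 locus (chromosome 6, 113067428 to 113077333 in GRCm38), was at 0.70, 1.23 and 1.18 TPM in GILZ TG against 10.1, 11.6 and 8.49 TPM in WT, a log2 fold change of -4.30 ± 0.22 (SE, edgeR adjusted p = 3.56e-06). It was at 7.79 to 10.1 TPM in GILZ KO, within or near the range of WT.

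Lyz2, the lysozyme gene into which Cre is inserted, differed strongly between the genotypes, although each is described as carrying Lyz2-Cre. Its level was 6766, 8034 and 9466 TPM in WT, but 22.1, 41.9 and 70.2 TPM in GILZ TG and 57.6, 67.7 and 63.3 TPM in GILZ KO. The log2 fold change of GILZ TG over WT was -7.52 ± 0.39 (SE, edgeR adjusted p = 3.56e-06). The number of Cre alleles per mouse is not given in the sources used here, and the part of the Lyz2 alleles in the differences described in this comparison cannot be told apart from that of the transgene within GILZ TG and WT. For this reason GILZ KO values, from libraries that also had low Lyz2, stand beside many of the genes below, though not beside all. Within 10 Mb of Lyz2, 0 of 63 tested neighbours passed the edgeR test. The counts were 1 of 91 near ROSA26 (Gdf3) and 0 of 45 near Tsc22d3, against 0.46% of all genes tested. At that share, so few neighbours cannot show whether these loci differ from the rest.

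**Figure D2:**
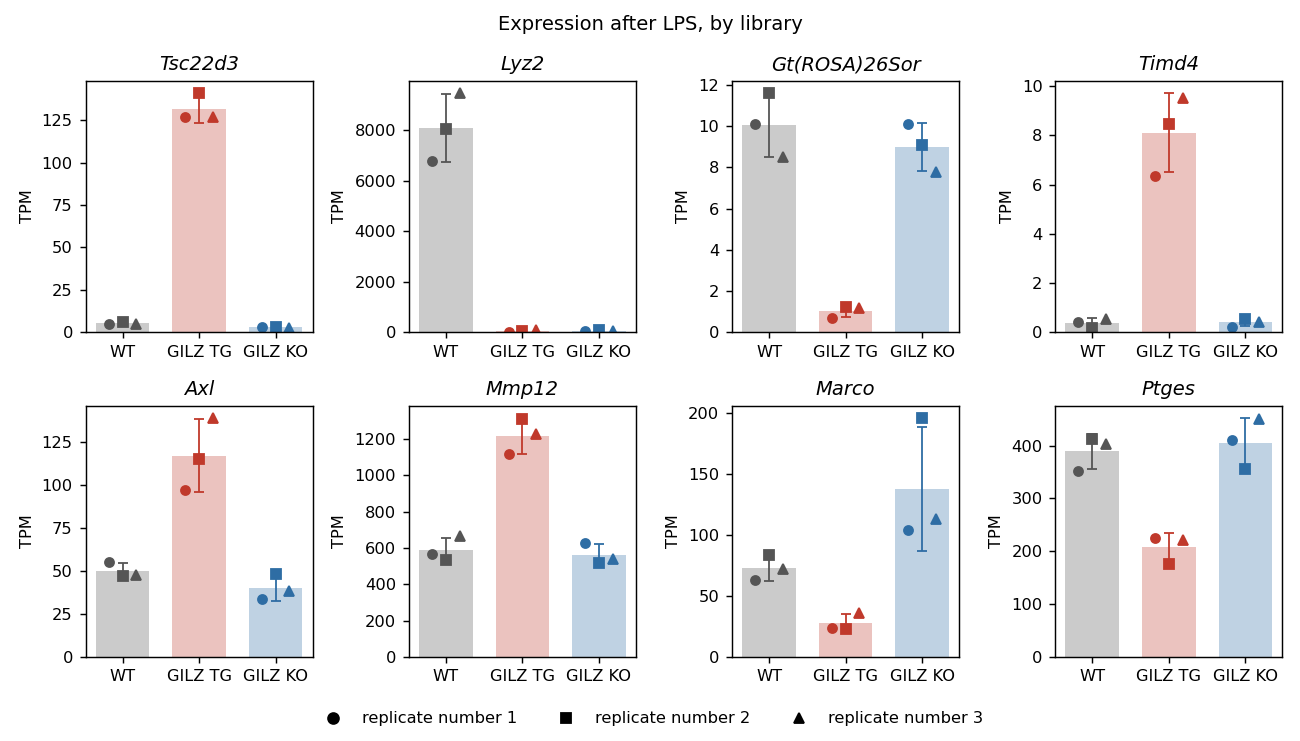
TPM of 8 genes in each library after LPS, with bars for the mean, error bars for the SD (n = 3) and 1 symbol per library. Timd4, Axl and Mmp12 lay higher in GILZ TG than in every WT and GILZ KO library, and Marco and Ptges lower, whereas Lyz2 was low in GILZ TG and in GILZ KO.

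Of the 12164 genes, 56 or 0.46% differed between GILZ TG and WT after LPS at an adjusted p under 0.05 (edgeR's quasi-likelihood test, Benjamini-Hochberg). Of these, 32 were higher in GILZ TG (0.263% of genes tested) and 24 lower (0.197%). At an unadjusted p under 0.05 there were 1852 genes (15.2%), and 2008 genes (16.5%) had no overlap between the groups. A gene was taken as consistent over the 3 GILZ TG replicates if it passed the test, if the groups did not overlap, and if the GILZ TG library nearest to the WT mean lay at least 0.5 times as far from it as the farthest one on the log2 scale. This held for 50 genes (0.411%), 28 higher and 22 lower, with a median absolute log2 fold change of 0.83. Without GILZ TG replicate 3 the test called 1067 of 12524 genes (8.52%), of which 1043 were consistent over the remaining pair, and the 50 genes were all among those called. Without GILZ TG replicate 2 it called 18 genes and without WT replicate 2 only 15, so the number of calls depends on single libraries in either direction. Of the 50 consistent genes, 11 remained called whichever library was left out.

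**Figure D3:**
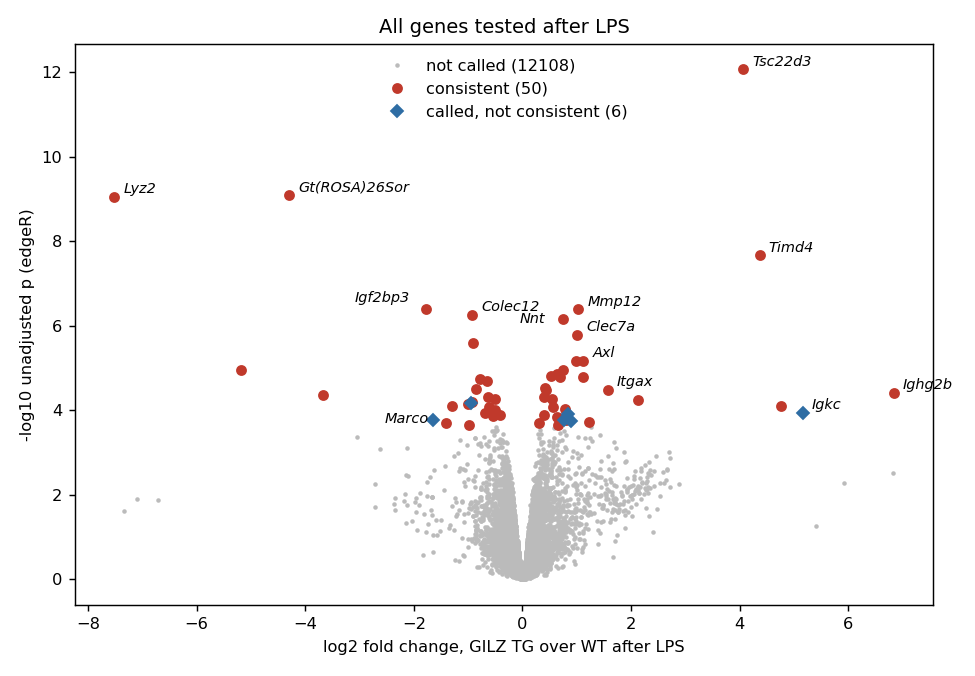
Log2 fold change of GILZ TG over WT after LPS against -log10 of the unadjusted edgeR p for the 12164 genes tested. The 50 consistent genes are red circles, the 6 called genes that were not consistent blue diamonds, and Tsc22d3, Lyz2, Gt(ROSA)26Sor and Timd4 lie farthest up.

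Among receptors for dead cells and microbes, Timd4, Axl and Clec7a were higher in GILZ TG, while Marco and Colec12 were lower. Timd4, which encodes the phosphatidylserine receptor Tim-4, was at 6.35, 8.45 and 9.52 TPM in GILZ TG and at 0.41, 0.18 and 0.55 TPM in WT. It had 229 to 330 reads per GILZ TG library and 5 to 17 per WT library, and the log2 fold change was 4.37 ± 0.31 (SE, edgeR adjusted p = 6.48e-05). GILZ KO libraries were at 0.23 to 0.53 TPM, within the range of WT. Axl, a receptor tyrosine kinase of the TAM family that binds phosphatidylserine through Gas6, was at 96.9, 115 and 139 TPM against 55.1, 47.1 and 47.6 TPM, with a log2 fold change of 1.12 ± 0.14 (SE, edgeR adjusted p = 0.00706). All 3 GILZ TG libraries were above all WT and GILZ KO libraries (33.9 to 47.9 TPM), and the call was lost only just without WT replicate 2 (edgeR adjusted p = 0.0502).

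Clec7a encodes Dectin-1, a receptor for fungal beta-glucan. Its level was 52.0, 61.4 and 61.5 TPM in GILZ TG and 31.7, 26.4 and 30.3 TPM in WT, a log2 fold change of 1.01 ± 0.11 (SE, edgeR adjusted p = 0.00219). GILZ KO was at 31.7 to 42.5 TPM, at or above the highest WT level and below GILZ TG. Marco, a class A scavenger receptor for bacteria and particles, was at 23.4, 23.1 and 36.3 TPM in GILZ TG and at 62.7, 83.2 and 71.7 TPM in WT. The groups did not overlap, but the call was marginal (log2 fold change -1.40 ± 0.26, SE, edgeR adjusted p = 0.0459) and was lost without any single library other than GILZ TG replicate 3 (edgeR adjusted p from 0.0679 to 0.216). GILZ KO libraries lay on the other side of WT, at 104 to 196 TPM. Colec12, a collectin-type scavenger receptor, was the least variable of these receptors, at 8.70, 8.66 and 8.58 TPM against 17.3, 16.0 and 16.1 TPM (log2 fold change -0.93 ± 0.09, SE, edgeR adjusted p = 0.00094), and GILZ KO was at 14.1 to 17.7 TPM.

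The other members of this list did not pass the test. Of 33 tested phagocytic and dead-cell receptors, 3 rose and 2 fell (against 0.46% of all genes called), and 10 were called without GILZ TG replicate 3 (against 8.52%). This list, like the others, was chosen with earlier results of these data known, so its share of calls is not an independent result. In the list 20 had a positive and 13 a negative log2 fold change, and the median was 0.097 against 0.007 over all genes tested. Cd36 and Cd68, the most abundant members, had log2 fold changes of 0.10 ± 0.08 (edgeR adjusted p = 0.62) and 0.09 ± 0.08 (edgeR adjusted p = 0.656).

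Proteins of the extracellular space were also among the consistent genes. Mmp12, the macrophage elastase, was the most abundant of the consistent genes with a log2 fold change of at least 1. It stood at 1115, 1312 and 1228 TPM in GILZ TG and at 565, 534 and 663 TPM in WT, with a log2 fold change of 1.03 ± 0.10 (SE, edgeR adjusted p = 0.000833). GILZ KO libraries were at 515 to 629 TPM, which overlaps with WT. Of 24 tested metalloproteinases and inhibitors only Mmp12 passed the edgeR test, and 13 were higher and 11 lower. The median log2 fold change was 0.083, and 11 members had an unadjusted p under 0.05, against 15.2% of all genes tested. Mmp13 had a log2 fold change of -0.01 ± 0.14 (edgeR adjusted p = 0.988) and Mmp9 of -0.13 ± 0.23 (edgeR adjusted p = 0.834). The gelatinase Mmp2 was low, at 1.49, 1.96 and 0.50 TPM in GILZ TG against 0.26 to 0.53 TPM in WT, which overlapped (edgeR adjusted p = 0.124). Without GILZ TG replicate 3 Mmp2 did pass (log2 fold change 1.98, edgeR adjusted p = 0.00256), as did 11 of the 24 list members, against 8.52% of all genes in that fit. These are the libraries with the high stromal markers, whose part in this was not tested.

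Itgax encodes the integrin CD11c, which dendritic cells and some macrophages carry. Its level was 13.6, 17.4 and 9.36 TPM in GILZ TG and 6.19, 3.81 and 3.61 TPM in WT, a log2 fold change of 1.57 ± 0.23 (SE, edgeR adjusted p = 0.0171), with 4.11 to 5.43 TPM in GILZ KO. The other 7 dendritic cell markers summed to 0.73 to 1.44 TPM in GILZ TG and 0.80 to 1.15 TPM in WT, and 7 of the 8 markers were under 1 TPM in all 6 libraries. Kitl, the ligand of the receptor Kit, was at 24.2, 22.2 and 17.4 TPM against 12.2 to 13.2 TPM. Il10ra, the ligand-binding chain of the interleukin-10 receptor, was at 117, 128 and 123 TPM against 89.0 to 94.1 TPM in WT and 93.5 to 104 TPM in GILZ KO, a small change with little spread (log2 fold change 0.42 ± 0.06, SE, edgeR adjusted p = 0.0171). Psap, the precursor of the lysosomal saposins, was the most abundant gene that rose, from 2034 to 2179 TPM in WT up to 2632 to 3003 TPM in GILZ TG. The call of Itgax was lost without GILZ TG replicate 1 or 2 or WT replicate 2 or 3 (edgeR adjusted p from 0.0547 to 0.114), that of Il10ra without GILZ TG replicate 2 or WT replicate 2 or 3 (0.0705 to 0.101), and those of Kitl and Psap without any library other than GILZ TG replicate 3 (up to 0.213 and 0.15).

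Among enzymes, Ptges, which makes prostaglandin E2 and is strongly induced by LPS, was lower in GILZ TG. It was at 225, 175 and 222 TPM in GILZ TG, at 352, 413 and 403 TPM in WT and at 356 to 450 TPM in GILZ KO. The log2 fold change over WT was -0.91 ± 0.10 (SE, edgeR adjusted p = 0.00316), and without treatment both genotypes stood at 20.2 to 38.7 TPM. Cd38 and Bst1, neighbouring genes on chromosome 5 whose products are related NAD-consuming ectoenzymes, fell together. Cd38 was at 31.1, 36.8 and 43.0 TPM against 57.0, 72.0 and 82.2 TPM, and Bst1 at 29.5, 35.7 and 44.0 TPM against 47.5, 58.0 and 64.8 TPM. Neither overlapped between the genotypes, and GILZ KO was within or near the range of WT for both (59.7 to 72.8 TPM and 56.9 to 73.0 TPM). The log2 fold changes were -0.93 ± 0.15 (SE, edgeR adjusted p = 0.0242) and -0.69 ± 0.12 (SE, edgeR adjusted p = 0.0341). Bnip3, a mitophagy receptor of the outer mitochondrial membrane, fell from 27.3 to 29.2 TPM in WT to 17.9 to 18.4 TPM in GILZ TG. The calls of Cd38 and Bst1 were lost without GILZ TG replicate 1 or 2 or WT replicate 2 or 3 (edgeR adjusted p up to 0.114 and 0.166), and that of Bnip3 without replicate 2 of either genotype (up to 0.0752).

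For a few consistent genes the GILZ KO libraries lay on the same side of WT as the GILZ TG libraries, which were compared with the same 3 WT libraries. Igf2bp3, an RNA-binding protein of fetal tissues, was at 2.51, 2.30 and 1.61 TPM in GILZ TG, 8.41, 7.51 and 6.26 TPM in WT and 2.36 to 2.98 TPM in GILZ KO (GILZ TG over WT log2 fold change -1.77 ± 0.17, SE, edgeR adjusted p = 0.000833). Nnt, the mitochondrial transhydrogenase, which is known to be defective in the C57BL/6J strain, was at 16.8, 18.9 and 18.9 TPM in GILZ TG, 10.8, 10.3 and 11.7 TPM in WT and 19.7 to 22.8 TPM in GILZ KO (log2 fold change 0.74 ± 0.07, SE, edgeR adjusted p = 0.00108). Wdfy1, an endosomal protein, was at 22.6, 31.8 and 22.9 TPM, 15.4 to 19.4 TPM and 33.2 to 38.0 TPM in the same order, and Ide, the insulin-degrading enzyme, at 29.3, 24.2 and 21.5 TPM, 44.5 to 47.1 TPM and 20.4 to 21.6 TPM. Prl2c2, a prolactin family gene with near-identical copies whose reads are hard to assign, was at 31.0 to 51.5 TPM in GILZ TG, 72.9 to 114 TPM in WT and 37.9 to 51.0 TPM in GILZ KO. Without WT replicate 2 the edgeR adjusted p was 0.0509 for Wdfy1, 0.0627 for Ide and 0.13 for Prl2c2, and the latter 2 calls were also lost without GILZ TG replicate 2, and that of Prl2c2 without WT replicate 1. Of the 50 consistent genes, 43 had all 3 GILZ TG libraries outside the range of the 6 WT and GILZ KO libraries. This held for 971 genes, or 7.98% of all genes tested. All of them are among the 2008 genes with no overlap between GILZ TG and WT. The choice of consistent genes uses the same GILZ TG and WT values, so the count of 43 describes their place against GILZ KO only.

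**Figure D4:**
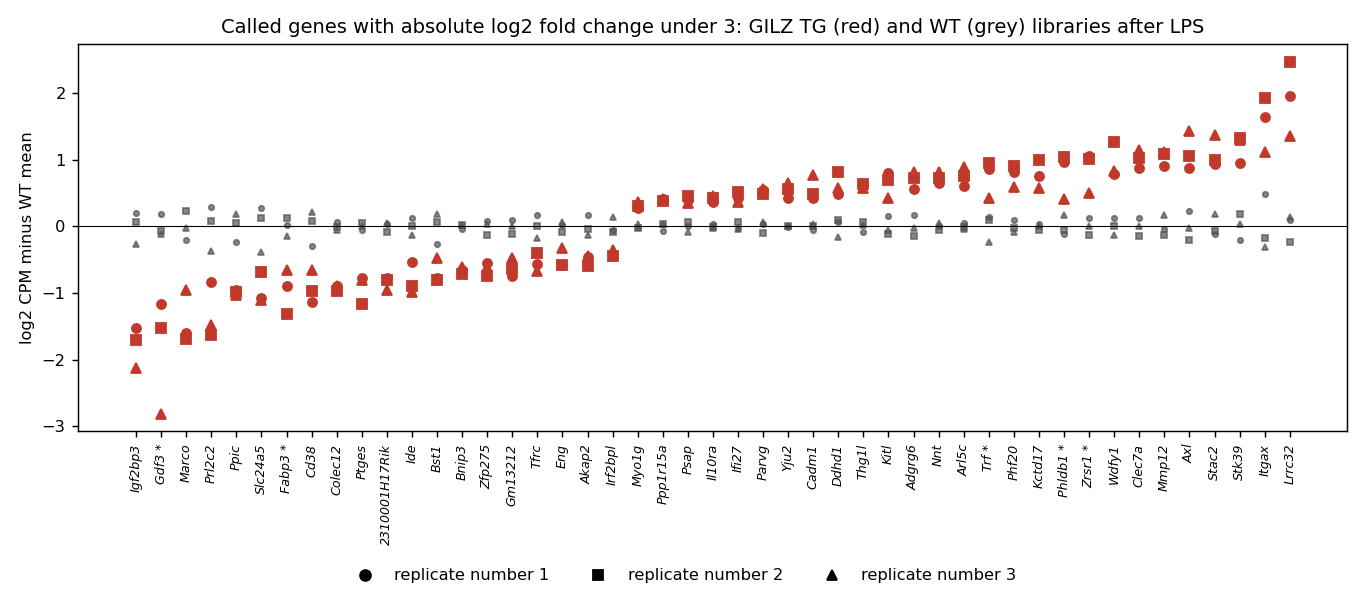
Log2 CPM of each library after LPS minus the WT mean for the called genes with an absolute log2 fold change under 3, with GILZ TG in red and WT in grey. An asterisk marks called genes that are not consistent, such as Gdf3 and Phldb1.

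The remaining ranked consistent genes were of mixed function. Lower in GILZ TG were Ppic, a cyclophilin (9.90 to 10.9 against 17.5 to 24.2 TPM), Slc24a5, a cation exchanger of pigment cells (3.11 to 4.44 against 5.41 to 8.39 TPM), and 2310001H17Rik (4.43 to 6.19 against 9.24 to 9.65 TPM). Higher were Arl5c, a small GTPase (50.9 to 61.2 against 33.3 to 35.0 TPM), Phf20, a chromatin reader (28.0 to 37.2 against 18.6 to 24.4 TPM), and Kctd17 (8.43 to 11.3 against 4.77 to 5.40 TPM). Ighg2b, an immunoglobulin heavy chain constant region, had the largest positive log2 fold change, at 9.31, 35.0 and 3.75 TPM against 0 to 0.22 TPM (6.84 ± 1.03, SE, edgeR adjusted p = 0.0187). It met the definition of consistency on the log2 scale, but its level differed between the GILZ TG libraries in the same order as the B and plasma cell markers, of which it is one. Of these genes Arl5c lost its call only without WT replicate 2 (edgeR adjusted p = 0.0609), Ighg2b without any WT library (up to 0.114), and the others without 4 or 5 of the 6 libraries in turn (up to 0.216).

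Called without being consistent were 6 genes. Gdf3, a ligand of the TGF-beta family that maps near ROSA26, was at 6.48, 5.27 and 2.0 TPM against 13.8 to 16.7 TPM in WT. Fabp3, a fatty acid-binding protein, was at 15.0 to 22.6 against 33.4 to 38.9 TPM and missed the definition by the second decimal (a ratio of 0.49). Trf, which encodes transferrin, was at 58.8, 72.4 and 43.7 TPM against 27.0 to 36.9 TPM, while Tfrc, the transferrin receptor, fell consistently (47.1 to 61.6 against 67.9 to 79.3 TPM, log2 fold change -0.54 ± 0.09, SE, edgeR adjusted p = 0.0361). Phldb1 and Zrsr1 were likewise nearest to WT in GILZ TG replicate 3. Phldb1, for which the groups overlap in TPM though not in CPM, was at 22.6, 27.9 and 13.2 TPM against 10.8 to 14.9 TPM, and Zrsr1 at 6.11, 6.22 and 4.12 TPM against 2.66 to 3.24 TPM. Igkc, the kappa light chain constant region, was at 43.1, 93.2 and 7.28 TPM against 0.60 to 2.22 TPM and belongs to the B and plasma cell markers. Without WT replicate 2 all 6 genes lost their call (edgeR adjusted p from 0.134 to 0.205), as did Tfrc (0.154).

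LPS-induced cytokines and chemokines were strongly expressed in both genotypes, and 0 of 39 tested members passed the edgeR test (11 at an unadjusted p under 0.05, against 15.2% of all genes; the median log2 fold change was -0.077). Tnf was at 2042, 1959 and 2375 TPM in GILZ TG and 1870, 2101 and 2093 TPM in WT, which overlap (log2 fold change 0.07 ± 0.09, SE, edgeR adjusted p = 0.762). Il1b was at 3157, 3293 and 6637 TPM against 3741, 4802 and 4656 TPM, and Il6 at 734, 721 and 1501 TPM against 874, 1087 and 1171 TPM. For both, GILZ TG replicates 1 and 2 lay below and replicate 3 above all WT libraries. Over the 3 replicates the log2 fold changes were -0.01 ± 0.25 (edgeR adjusted p = 0.995) and -0.08 ± 0.25 (edgeR adjusted p = 0.919), but without replicate 3 they were -0.47 (edgeR adjusted p = 0.0232) and -0.54 (edgeR adjusted p = 0.0189). The list's median against the WT mean was -0.249 and -0.180 in GILZ TG replicates 1 and 2 and 0.188 in replicate 3. In WT it was -0.177, 0.049 and 0.029, so GILZ TG replicate 2 lay next to WT replicate 1. Without GILZ TG replicate 3, 15 of 39 members were called, against 8.52% of all genes in that fit.

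Il12b, the p40 subunit of interleukins 12 and 23, was the key cytokine closest to the threshold. It was at 22.7, 18.2 and 12.5 TPM in GILZ TG, below all WT libraries at 30.4, 33.8 and 35.2 TPM, with 41.0 to 53.8 TPM in GILZ KO (GILZ TG over WT log2 fold change -0.88 ± 0.18, SE, edgeR adjusted p = 0.0682). Il10 was at 56.0, 67.1 and 52.3 TPM against 88.4, 53.4 and 48.7 TPM, which overlap. The chemokines Cxcl10 and Ccl3, the most abundant of the list, had log2 fold changes of -0.03 ± 0.08 and -0.09 ± 0.11.

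**Figure D5:**
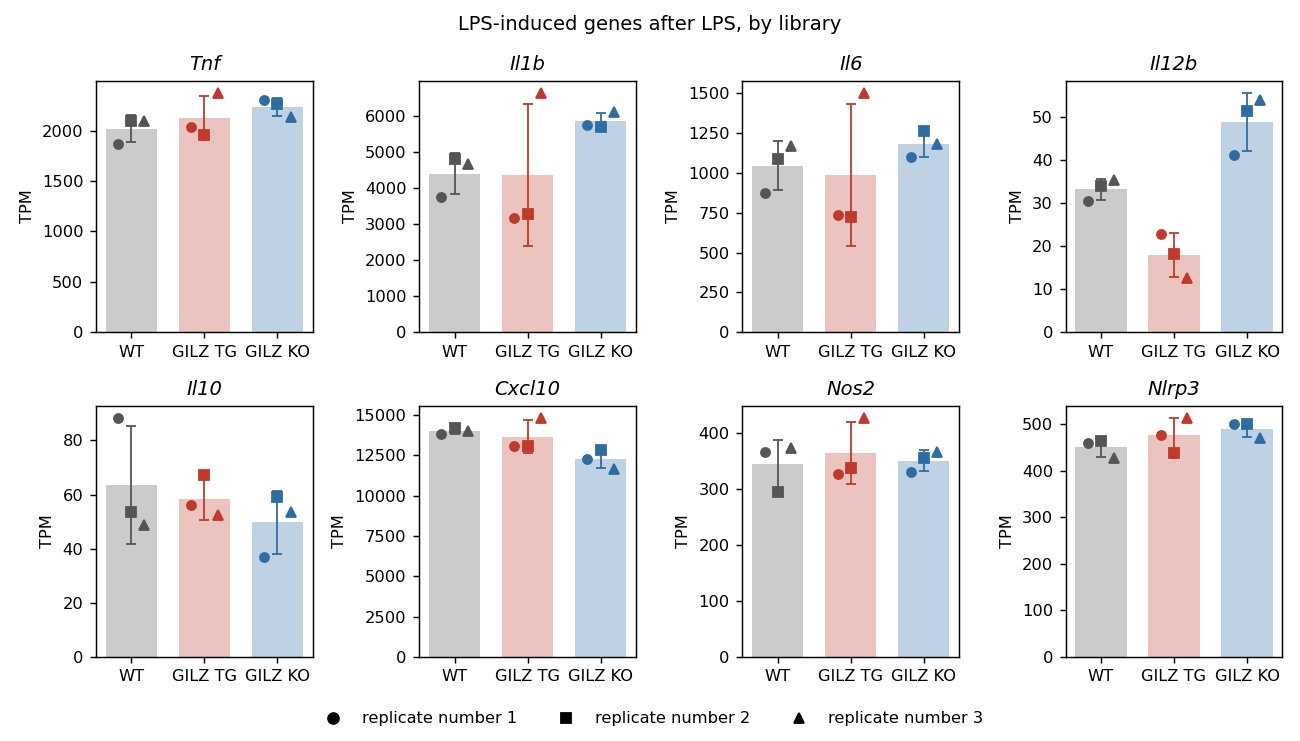
TPM of 8 LPS-induced genes in each library after LPS, with bars for the mean, error bars for the SD (n = 3) and 1 symbol per library. Il1b and Il6 spread most within GILZ TG, where replicate 3 is the highest, and Il12b is lower in all GILZ TG libraries than in WT.

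The upstream and parallel programmes of LPS activation showed small differences. Their counts at an unadjusted p under 0.05 stand against 15.2% of all genes tested. None of 36 tested genes of TLR4 signalling and NF-kB passed the edgeR test (7 at an unadjusted p under 0.05, median log2 fold change 0.001), with Cd14 at -0.03 ± 0.12 and the NF-kB inhibitor gene Nfkbia at 0.05 ± 0.07. None of 39 interferon-stimulated genes passed it (5 at an unadjusted p under 0.05, median 0.008), with Rsad2 at -0.02 ± 0.11. Of 21 inflammasome and pyroptosis genes 0 were called by edgeR (3 at an unadjusted p under 0.05, median -0.070), with Nlrp3 at 0.14 ± 0.08 and Ninj1 at 0.10 ± 0.07. Of 14 genes of nitric oxide and arginine metabolism 0 were called by edgeR (2 at an unadjusted p under 0.05, median -0.017). Nos2, the inducible nitric oxide synthase, was at 327, 338 and 427 TPM against 365, 295 and 372 TPM and overlapped. Odc1 had a log2 fold change of -0.09 ± 0.12, Arg1 of -0.41 ± 0.20 (edgeR adjusted p = 0.353) and Arg2 of 0.18 ± 0.29. Genes that rose at least 2 log2 units with LPS in GILZ KO libraries, which are independent of the GILZ TG and WT values, numbered 957 among those tested. Of these, 5 rose and 5 fell in GILZ TG against WT, against 0.46% of all genes called, with a median of -0.002. Of 367 genes that LPS lowered as much in GILZ KO, 0 were called by edgeR (37 at an unadjusted p under 0.05). Without GILZ TG replicate 3, where 8.52% of all genes were called, 146 of the 957 and 20 of the 367 genes were called, with medians of -0.076 and 0.141. In the same fit 4 of 36 genes of TLR4 signalling and NF-kB, 2 of 39 interferon-stimulated genes, 3 of 21 inflammasome genes and 1 of 14 genes of nitric oxide and arginine metabolism were called.

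Within the TSC22 family and glucocorticoid receptor targets, Tsc22d3 itself was the only one of 19 tested members that the edgeR test called. The median log2 fold change was 0.071, and 13 were higher and 6 lower. Without GILZ TG replicate 3, 4 of the 19 members were called, against 8.52% of all genes in that fit. The abundant glucocorticoid targets Anxa1 and Mt2 had log2 fold changes of 0.01 ± 0.09 and 0.11 ± 0.26.

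No member of the remaining lists passed the edgeR test over the 3 replicates. Counts of their members at an unadjusted p under 0.05, here and below, stand against 15.2% of all genes tested. Without GILZ TG replicate 3, where 8.52% of all genes were called, the members called were 16 of 25 collagens, 4 of 37 Complex I subunits, 0 of 77 mitochondrial ribosomal proteins, 4 of 19 glycolysis genes, 3 of 12 osteoclast-associated genes, 3 of 27 genes of cholesterol synthesis and LXR targets, 2 of 19 antigen presentation genes and 2 of 29 proliferation genes. Antigen presentation and costimulation had 16 of 19 tested members higher in GILZ TG (5 at an unadjusted p under 0.05, median 0.113), with B2m at -0.03 ± 0.10 and H2-D1 at 0.12 ± 0.07. Complex I of the respiratory chain had 32 of 37 subunits higher (8 at an unadjusted p under 0.05, median 0.113), with Ndufa4 at 0.10 ± 0.08 and Ndufb8 at 0.21 ± 0.09. Mitochondrial ribosomal proteins had 59 of 77 higher (1 at an unadjusted p under 0.05, median 0.040), with Mrpl52 at 0.01 ± 0.10 and Mrps21 at 0.02 ± 0.10. Over all genes tested 6295 were higher and 5869 lower, so these 3 lists had more members higher than lower, by small amounts and with no call over the 3 replicates.

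Glycolysis was evenly split, with 9 of 19 higher (8 at an unadjusted p under 0.05, median -0.003), Gapdh at 0.21 ± 0.08 and Pkm at 0.19 ± 0.09. Cholesterol synthesis and LXR targets had 14 of 27 higher (1 at an unadjusted p under 0.05, median 0.007). Its most abundant member, the apolipoprotein gene Apoe, was at 2095, 2833 and 395 TPM against 1229, 901 and 279 TPM, so that replicate 3 was the lowest in either genotype (log2 fold change 1.05 ± 0.61, SE, edgeR adjusted p = 0.452). Proliferation genes had 12 of 29 higher (1 at an unadjusted p under 0.05, median -0.056), with Pcna at 0.10 ± 0.10 and Top2a at -0.07 ± 0.18.

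Osteoclast-associated genes had 9 of 12 higher (5 at an unadjusted p under 0.05, median 0.288), with Tnfrsf11a, the receptor RANK, at -0.01 ± 0.12. Collagens had 19 of 25 higher (16 at an unadjusted p under 0.05, median 0.660), but by library the list's median was 0.591 and 0.900 above the WT mean in GILZ TG replicates 1 and 2 and 0.364 below it (-0.364) in replicate 3. The same split was seen in the stromal markers, with which this list shares genes. Col18a1, the most abundant collagen, behaved otherwise, at 187, 166 and 150 TPM in GILZ TG below 256, 225 and 229 TPM in WT (log2 fold change -0.50 ± 0.10, SE, edgeR adjusted p = 0.0558), and Col4a2 had a log2 fold change of 0.03 ± 0.18.

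The LPS response itself was compared between the genotypes over all 18 libraries, as the difference of the log2 change from untreated to LPS. Of 13169 genes, 1 (0.00759%) differed at an adjusted p under 0.05 by edgeR, and 407 at an unadjusted p under 0.05. This gene was Tsc22d3, whose normalized counts had a log2 change with LPS of -1.1 in WT and 0.33 in GILZ TG, a difference of 1.43 ± 0.16 (SE, edgeR adjusted p = 0.00139). The direction in GILZ TG depends on the scale. There the TPM lay between 152 and 160 untreated and between 127 and 141 after LPS. In WT the level lay between 14.9 and 18.8 TPM untreated and between 4.56 and 5.81 TPM after LPS, lower after LPS on either scale. Why the scales differ was not tested. With the replicate number within each genotype as a block, Lyz2 was called in addition, with a difference of 1.11 (edgeR adjusted p = 0.0152). Its level was 17.2 to 53.1 TPM in untreated GILZ TG against 11048 to 15401 TPM in untreated WT.

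The consistent genes were in most cases also different without treatment. Of the 50, 49 were tested in the untreated GILZ TG and WT libraries. Of these, 48 had the same sign (72.0% of all genes tested in both), and 28 were called by edgeR, against 0.642% of all genes untreated. Untreated and LPS libraries may come from the same preparations, which the titles do not state, so this is not an independent replication. Mmp12 was at 1089 to 1332 TPM in untreated GILZ TG and 496 to 573 TPM in untreated WT, and Axl at 39.0 to 44.4 TPM and 12.4 to 16.4 TPM. Timd4 was not tested without treatment, where it was listed at 0 in all WT libraries and at 0.12 to 0.31 TPM in GILZ TG. Its high level in GILZ TG was thus seen only after LPS. Its TPM in WT was also higher after LPS, and its LPS response was not called different between the genotypes. Ptges, Bnip3 and Il10ra were not called without treatment (edgeR adjusted p = 0.233, 0.277 and 0.282), but their LPS response was not called different between the genotypes either.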

How the data were processed

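RNA of BMMs was sequenced from poly(A) RNA with a strand-specific kit in reads of 75 nt. The authors mapped the reads to GRCm38 with the grape-nf pipeline and deposited, per library and gene, an expected count (not normalized, in the layout of RSEM) and TPM (scaled by effective length and total). The authors' deposited DESeq2 tables hold fold changes and p-values and were not used. Whether counting used strand is not given in the sources used here.

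Expected counts of the 9 LPS libraries were rounded, filtered with filterByExpr, normalized by TMM and tested with edgeR 4.0.16 (R 4.3.3) with genotype as the factor. The Benjamini-Hochberg adjusted p had to be under 0.05. The LPS response was tested in all 18 libraries. Total counts on genes of 20757976 to 38557029 (GILZ TG) and 22888219 to 26614977 (WT) set the precision of low genes. Preparations are separate mice by the methods, and replicates of a group differed by more than sampling noise. Replicate numbers did not pair GILZ TG with WT (correlations 0.103, -0.12 and 0.02). Between LPS and untreated libraries of the same number, the correlations were 0.264, -0.013 and 0.055 in WT. In GILZ TG they were 0.266, 0.397 and 0.605.

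Named were the engineered genes, the 12 consistent genes with the largest change per direction (at least 5 TPM), the 5 largest called but not consistent, called list members, the 2 most abundant members per list, a set of key genes and genes called in the LPS response. The values of 1 gene that this rule names are not reported here. Bst1, Bnip3, Il10ra, Kitl, Psap and Tfrc were named after their values were seen. The gene lists, the markers and this rule were chosen with earlier results of these data known. Alternatives were DESeq2 1.42.0, limma 3.58.1 on log2(TPM + 1) and log2(TPM + 0.1), RLE size factors, no filter, a minimum count of 50, other library sets, a replicate block, each library left out, and thresholds of 0.01 and 0.1. Figures were drawn with matplotlib 3.10.9.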

Additional observations from a re-analysis of the deposited data

Results flagged for a closer look

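The genotype difference of Tsc22d3 was not the same in both treatments. The LPS response of GILZ TG exceeded that of WT by 1.43 on the log2 scale (SE 0.16, edgeR adjusted p = 0.00139 over 13169 genes), with changes of -1.1 in WT and 0.33 in GILZ TG in normalized counts. In TPM the level in GILZ TG was lower after LPS (127 to 141) than untreated (152 to 160), so the direction in GILZ TG turns with the scale. The difference was called in each of the alternative analyses of the response, with differences of 1.34 to 1.56. In the engineered strain part of this mRNA is made from the transgene, and the counts do not separate it from the gene's own transcript.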

How the results depend on the processing

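Among 56 called and 50 consistent genes, 10 kept their call in all 15 alternatives of the test, namely Tsc22d3, Lyz2, Gt(ROSA)26Sor, Timd4, Mmp12, Clec7a, Nnt, Igf2bp3, Colec12 and Ptges. The number of genes called was 274 with DESeq2, 34 and 31 with limma on log2(TPM + 1) and log2(TPM + 0.1), 412 without the low-count filter, 15 with only the 6 libraries, 252 with all 18, and 14 and 161 at thresholds of 0.01 and 0.1. The consistent genes numbered 157, 32, 31, 150, 15, 172, 14 and 123 in the same order. RLE size factors and a minimum count of 50 gave 54 and 57 genes. With a replicate block over GILZ TG and WT, 58 genes were called and 45 were consistent, although the numbers share no labelled origin. Leaving out 1 library gave 15 (without WT replicate 2) to 1067 genes (without GILZ TG replicate 3), and 15 to 1043 consistent genes. For the LPS response the block of replicate numbers within genotype and DESeq2 called 2 genes each (Tsc22d3 with Lyz2 or with Icam1), and leaving out 1 library 1 to 3. The cause of these shifts was not tested, except that fewer or more libraries enter the fits.

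Sign changes were limited to genes that were not called. Without single libraries the log2 fold change ranged from -0.07 to 0.07 for Anxa1, -0.18 to 0.43 for Mt2, -0.12 to 0.02 for Cxcl10, -0.18 to 0.07 for Cd14, -0.01 to 0.09 for Nfkbia, -0.11 to 0.07 for Rsad2, -0.47 to 0.18 for Il1b, -0.54 to 0.12 for Il6, -0.06 to 0.16 for Nos2, -0.23 to 0.04 for Odc1, -0.20 to 0.08 for Mmp13, -0.37 to 0.08 for Mmp9, and -0.10 to 0.05 for B2m. It ranged from -0.24 to 0.08 for Top2a, -0.14 to 0.13 for Tnfrsf11a, -0.08 to 0.10 for Mrpl52, -0.05 to 0.12 for Mrps21, -0.26 to 0.20 for Col4a2, -0.03 to 0.15 for Tnf, -0.30 to 0.19 for Il10 and -0.05 to 0.44 for Arg2. With all 18 libraries Anxa1 and Mrpl52 were at -0.01, and with limma Col4a2 was at -0.03 for either pseudocount. Il12b and Col18a1 passed the test with DESeq2, without the filter, with all 18 libraries and without GILZ TG replicate 1 or 3. Among the gene lists, the median of proliferation genes ranged from -0.233 to 0.125, that of cytokines and chemokines from -0.238 to 0.029, of nitric oxide and arginine metabolism from -0.091 to 0.029 and of cholesterol synthesis from -0.169 to 0.047 when single libraries were left out, so these lists have no stable direction. The medians of TLR4 signalling and NF-kB, interferon-stimulated genes and glycolysis also changed sign. So did those of the genes that LPS raised or lowered in GILZ KO.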
